A study of Mus musculus with 12 samples.

Results

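miR-21a is the mouse form of miR-21, a microRNA whose hairpin precursor gives a 5p arm and a 3p arm. Both arms were followed here in small RNA from extracellular vesicles, the membrane particles that cells shed. The 2 arms were chosen by name, as the rows mmu-miR-21a-5p and mmu-miR-21a-3p among 1978 rows that carry mouse miRNA names. The vesicles came from bone marrow mesenchymal stem cells, which are stromal cells able to form bone, cartilage and fat, of C57BL/6 mice kept free of specified pathogens. All 12 libraries share the label of an antigen intervention, and the labels sort them into the groups aFM, NY, PLL and DZ with 3 libraries each, lettered A, B and C. The design text describes exposure to 3 hydatid (tapeworm larva) preparations, ESPs, HCF and pLL, at 2 µg/ml for 48 h. It does not say what aFM, NY or DZ stand for, nor which group, if any, went without a preparation, and the mice's age is not given in the sources used here. DZ served as a common baseline for the comparisons, not as a known control.

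miR-21 is among the most abundant microRNAs of many mammalian cells. It is transcribed under the control of AP-1, STAT3 and NF-κB, rises in inflammation, fibrosis and many tumours, and restrains targets such as Pdcd4 (a translation inhibitor) and Reck (a protease inhibitor). In human smooth muscle cells, TGF-β and BMP signals also raise it through SMAD proteins that assist the processing of its precursor. Of the duplex cut from a hairpin, one strand is kept in the Argonaute protein as the guide and the other is usually degraded. For miR-21 the 5p arm is the usual guide.

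The mature sequences are shown because the counts turn on which arm and which paralog a read could come from. They are RefSeq's for the GRCm38.p6 build, written 5′ to 3′ with the seed (bases 2 to 8, which set most target pairing) in capitals.
miR-21a-5p: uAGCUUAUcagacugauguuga
miR-21a-3p: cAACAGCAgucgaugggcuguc
miR-21b: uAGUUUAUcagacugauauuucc
miR-21c: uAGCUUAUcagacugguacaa
The 5p and 3p arms of miR-21a have no seed in common. miR-21c has the seed of miR-21a-5p and matches its first 15 bases. Counted from 1 at the 5′ end, with the base of miR-21a-5p first, miR-21c differs by A16G, G18A, U19C, U20A and G21A. miR-21b differs inside the seed by C4U and outside it by G18A, G21U and A22C. RefSeq gave a sequence for 1679 of the 1978 named rows, and among those only miR-21c shared the seed of miR-21a-5p and none shared that of miR-21a-3p.

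In GRCm38 the hairpin lies on chromosome 11 at chr11:86584067-86584158 on the minus strand. That is within the last exon of Vmp1, a gene for a membrane protein of autophagy, on the same strand and inside the part annotated as untranslated. The 5p arm lies at chr11:86584120-86584141 and the 3p arm at chr11:86584082-86584103. miR-21b and miR-21c come from other loci, at chr3:29636768-29636790 on the plus strand and chr8:128278188-128278208 on the minus strand.

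Annotated miRNA counts ran from 17607 to 60436 per library, 10.3% to 60.7% of all counts, and the rest fell on predicted loci with no miRNA name. The annotated share was 15.4% ± 4.61 in aFM, 23.7% ± 6.23 in NY, 43.9% ± 15.9 in PLL and 17.5% ± 6.23 in DZ (SD, n = 3), so a value per annotated count and a value per total count can rank the groups differently. All 8 mesenchymal markers listed had counts in every group and, leaving miR-21a-5p out, summed to 5.54% to 11.2% of annotated counts. The 7 haematopoietic and erythroid markers summed to 3.58% to 12.6%, with miR-144-3p at 0 in NY and miR-142a-3p at 0 in NY and DZ. The 5 epithelial markers summed to at most 0.187%, with miR-141-3p at 0 in aFM, NY and DZ. The liver miRNA miR-122-5p had 1.51% to 1.61% in aFM, 0.222% to 0.326% in NY, 0.304% to 0.860% in PLL and 0.169% to 4.06% in DZ, so aFM lay above NY, and DZ replicate C, at 38727 CPM, stood apart from DZ replicates A and B, at 1920 and 4393 CPM. Its part in the results was not tested. PLL replicate A also stood apart, with 60.7% of its counts annotated, against 29.2% and 41.7% in PLL replicates B and C. For miR-140-3p it had 101387 CPM, against 5486 and 5204 in those libraries, so means and spreads of PLL can lean on it. The labels do not say whether a group's libraries are from different mice or cultures. The p-values below therefore cover only the spread among these libraries, and that spread may be technical. In bulk RNA, fewer vesicles and less of a miRNA per vesicle cannot be told apart.

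The 5p arm held nearly all counts of miR-21a. Over the 12 libraries it had 33575 counts, against 2 counts of the 3p arm. Those 2 counts came from aFM replicate B and PLL replicate B, 1 each, and the other 10 libraries had none. The 3p arm was thus 0.00596% of both arms (95% exact Clopper-Pearson interval 0.000721% to 0.0215%).

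At this depth no group showed a measurable 3p share. It was 1 of 5958 counts in aFM, 0 of 11003 in NY, 1 of 10111 in PLL and 0 of 6505 in DZ, where a count of 0 allows a share of up to 0.0273% in NY and 0.0461% in DZ. These intervals and limits cover counting error only. Exact permutation tests of the 3p share gave p = 1 over the 4 groups and in each of the 6 pairs. With only 2 libraries above 0 these tests could not detect a difference, and they say nothing on whether the shares are equal. miR-21a-3p did not pass the filter on low counts, so it has no fold change here.

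The other hairpins put this arm bias in context. Of 773 hairpins with both arms in the table under matching names, 76 had at least 100 counts over the 12 libraries. The less abundant arm took a median of 0.679% of both arms among them, and the highest share was 42.6%. miR-21a had a lower share than any other hairpin whose less abundant arm had a count. A further 20 hairpins had no count of that arm, but all of these were sampled less deeply, the deepest being let-7i with 17977 counts (named after its values were seen), whose interval of 0% to 0.0205% covers the value of miR-21a.

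The 20 hairpins with no count of that arm are tied, so none of them is nearer to miR-21a than the rest. The nearest hairpins above it were miR-9, a neural and myeloid miRNA, at 0.0127% (2 of 15692 counts), miR-99a at 0.0196% (2 of 10191) and let-7b, of the let-7 differentiation family, at 0.0668% (9 of 13481). The intervals of miR-9 and miR-99a overlapped that of miR-21a and the interval of let-7b, 0.0305% to 0.127%, did not. The intervals of 50 of the 76 hairpins lay wholly above that of miR-21a. Those of miR-143 and miR-148a, the next most abundant hairpins, were among them, with 5p arms at 0.0704% and 0.155%.

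**Figure D1:**
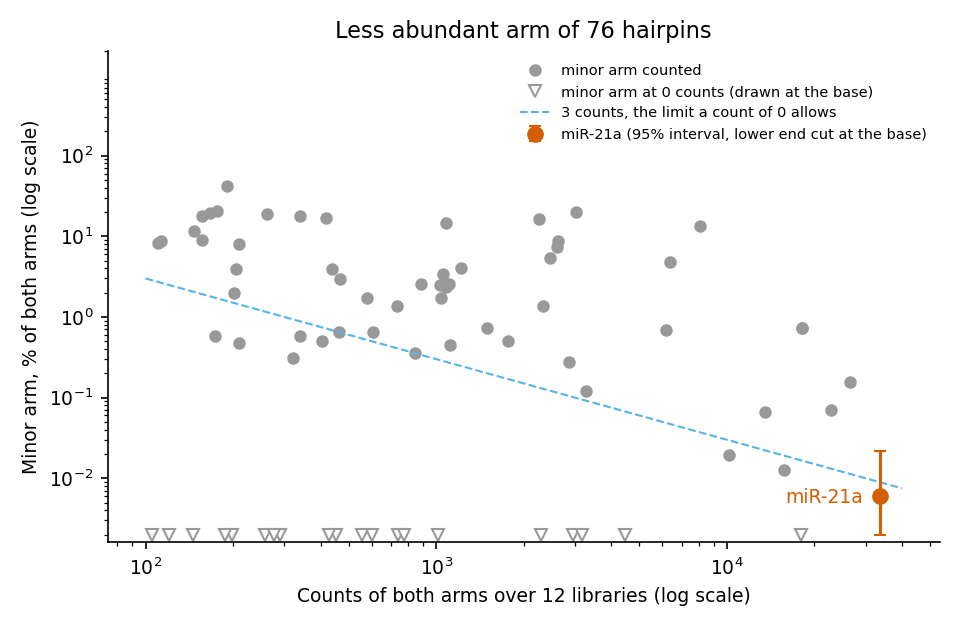
The share of the less abundant arm (% of both arms, log scale) is plotted against the counts of both arms summed over the 12 libraries (log scale) for 76 hairpins; triangles at the base are the 20 with no count of that arm, the dashed line marks 3 counts, and the bar on miR-21a is its 95% exact interval, its lower end cut at the base of the plot. miR-21a, with 33577 counts, is the most deeply counted hairpin and has the lowest share among those with a count of both arms.

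The paralogs added almost nothing. miR-21b and miR-21c had 5 counts each, 0.0149% of the count of miR-21a-5p. Their counts were equal in all 12 libraries, 1 in aFM replicate A, 1 in PLL replicate A, 1 in PLL replicate C, 2 in DZ replicate C and 0 elsewhere. Since the sequences differ, rows with equal counts in every library cannot be read as separate measurements of the paralogs.

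miR-21a-5p was the most abundant miRNA on average and stood first in 5 of the 12 libraries. It ranked first in all 3 NY libraries and in DZ replicates B and C. In aFM it ranked 3, 2 and 3 in replicates A, B and C, each time behind miR-148a-3p, an abundant miRNA of many tissues, which held 8.55% to 10.5% of annotated counts there. In PLL it ranked 6, 2 and 2. The highest there were miR-148a-3p at 12.7% in replicate A and miR-9-5p at 12.8% and 13.6% in replicates B and C. In DZ replicate A it ranked 4, behind among others the erythroid miR-486a-5p and its copy miR-486b-5p, which hold the same counts, at 9.25%.

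**Figure D2:**
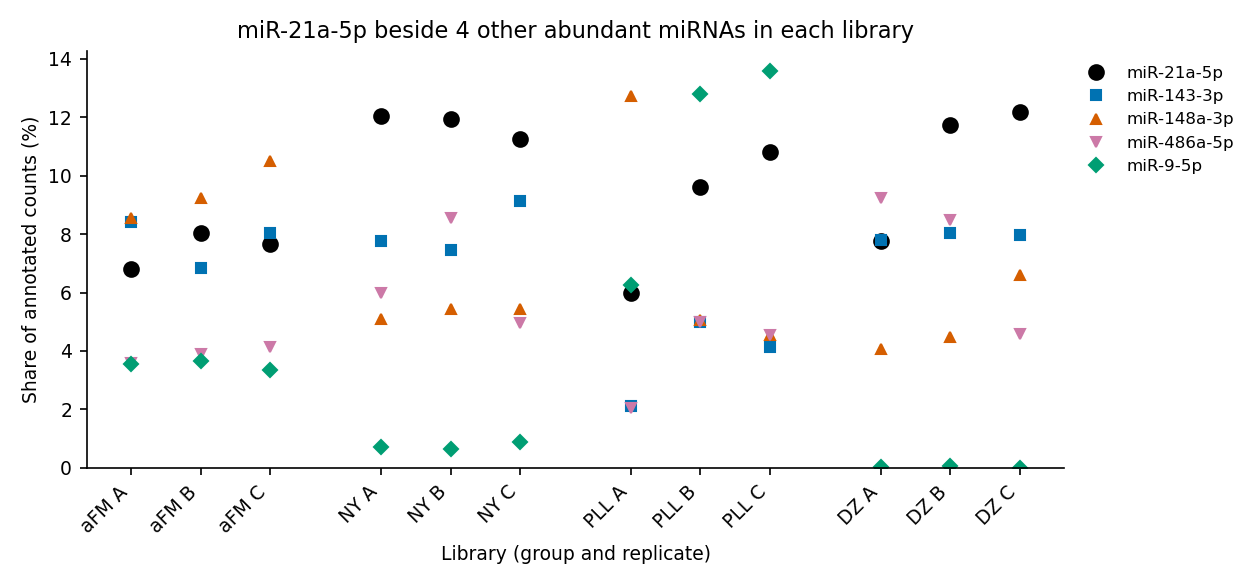
The share of annotated counts (%) in each of the 12 libraries is shown for miR-21a-5p (black circles) and 4 other abundant miRNAs. miR-21a-5p lies above the other 4 in the NY libraries and in DZ replicates B and C, and below miR-148a-3p in the aFM libraries and miR-9-5p in the PLL libraries.

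As a share of annotated counts, miR-21a-5p took 6.81%, 8.03% and 7.65% in aFM replicates A, B and C. The NY libraries had 12.04%, 11.9% and 11.3%, the PLL libraries 6.00%, 9.60% and 10.8% and the DZ libraries 7.77%, 11.7% and 12.2%. The widest 95% counting interval of a library, in DZ replicate B, ran from 11.3% to 12.2%, so the differences within PLL and within DZ exceed counting error. The same holds for some libraries of aFM and of NY. The intervals of aFM replicates A (6.49% to 7.15%) and B (7.70% to 8.36%) did not overlap. Nor did those of NY replicates A (11.7% to 12.4%) and C (10.9% to 11.6%). The NY libraries were all above the aFM and PLL libraries, while aFM and DZ overlapped through DZ replicate A. The group means were 7.50% ± 0.623 in aFM, 11.7% ± 0.423 in NY, 8.80% ± 2.50 in PLL and 10.6% ± 2.43 in DZ (SD, n = 3). An exact permutation test over the 4 groups gave p = 0.0944. The same exact test gave p = 0.0293 without DZ replicate A, and 0.0534 to 0.175 without any other library. Each of NY against aFM and PLL against NY had an exact p = 0.1, the smallest that 3 against 3 allows (adjusted p = 0.3 over 6 comparisons).

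Scaling by TMM factors, which adjust library sizes to the bulk of the 132 miRNAs tested, brought the libraries of PLL and of DZ closer together. The aFM libraries had 66836, 79635 and 69534 CPM (annotated counts scaled to library size), the NY libraries 122118, 132229 and 107542, the PLL libraries 83396, 86680 and 99815, and the DZ libraries 88085, 119316 and 116218. The aFM libraries were below every library of the other groups. NY lay above PLL, and DZ overlapped both NY and PLL. From high to low, the means were 120630 ± 12411 CPM in NY, 107873 ± 17207 in DZ, 89964 ± 8688 in PLL and 72002 ± 6747 in aFM (SD, n = 3).

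**Figure D3:**
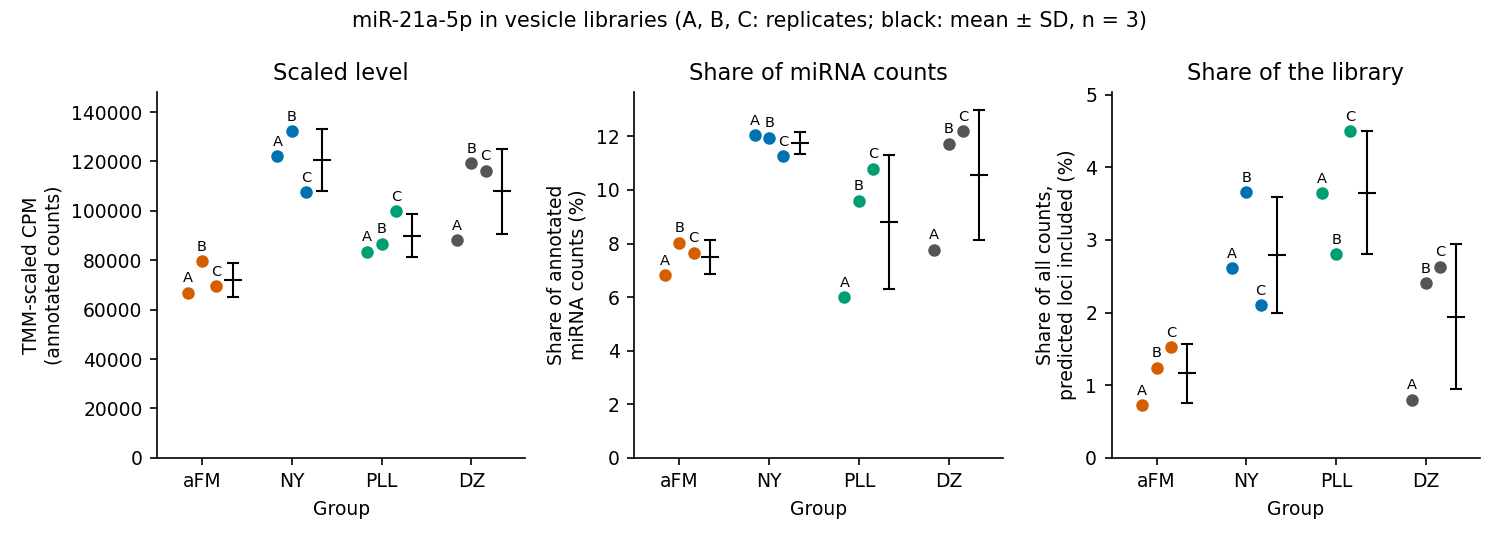
Each point is a library of the aFM, NY, PLL or DZ group (A, B and C are the replicates), with the mean ± SD (n = 3) in black, for miR-21a-5p as TMM-scaled CPM, as a share of annotated miRNA counts (%) and as a share of all counts with predicted loci included (%). aFM has the lowest mean on all 3 scales, whereas the highest mean is that of NY on the first 2 scales and that of PLL on the third.

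aFM stood apart from the groups at the top of that order. miR-21a-5p was lower in aFM than in DZ, with a log2 fold change of -0.58 ± 0.16 (SE; edgeR quasi-likelihood adjusted p = 0.0415), and lower in all 3 aFM libraries than in any DZ library. It was higher in NY than in aFM by 0.74 ± 0.16 on the log2 scale (adjusted p = 0.0270). In aFM against DZ 18.9% of the 132 miRNAs tested were called, 9.85% as lower, and 34.1% had groups that did not overlap. In NY against aFM 3.79% were called, 0.758% as higher, which is miR-21a-5p alone, and 3.03% as lower, and 43.9% did not overlap. By p, miR-21a-5p ranked 10 of 132 in aFM against DZ and 3 of 132 in NY against aFM. The joint test of any difference among the 4 groups gave adjusted p = 0.0340, with 12.1% of the miRNAs tested called.

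None of these 3 calls was secure. The joint call was lost in 10 of 12 fits that left out 1 library (adjusted p up to 0.151) and held in 4 of 11 other alternatives (up to 0.344). In aFM against DZ the call held without DZ replicate A (adjusted p = 0.0400), PLL replicate A (0.0164) or PLL replicate B (0.0474), and was lost without DZ replicate B or C, PLL replicate C, or any aFM or NY library (0.0598 to 0.141). In NY against aFM it held without any 1 DZ library (0.0339 to 0.0469) or PLL replicate A (0.00780), and was lost without PLL replicate B, without PLL replicate C, or without any aFM or NY library (0.0522 to 0.216). The log2 fold changes moved little, from -0.74 to -0.48 and from 0.62 to 0.80 over these fits. Both pairwise calls were also lost with RLE factors (adjusted p = 0.0843 and 0.0734), with DESeq2 (0.121 and 0.0731), with library totals and no factors (0.232 and 0.128) and with miR-9-5p left out of the counts (0.0551 and 0.0722).

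The other 4 comparisons did not pass the threshold. NY against DZ had a log2 fold change of 0.16 ± 0.16 (SE, adjusted p = 0.910), with 0.758% of miRNAs called and overlapping libraries. PLL against DZ stood at -0.26 ± 0.16 (adjusted p = 0.296), with 3.79% called, 3.03% as lower, and 21.2% not overlapping. PLL against aFM stood at 0.32 ± 0.16 (adjusted p = 0.184), with 9.09% called, 6.06% as higher and 3.03% as lower. The last comparison, PLL against NY, stood at -0.42 ± 0.16 (adjusted p = 0.148), with 6.82% called, 3.03% as higher and 3.79% as lower. The libraries did not overlap in PLL against aFM and in PLL against NY, as for 38.6% and 31.8% of the miRNAs tested. The comparisons share groups, so their values are not independent of each other.

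**Figure D4:**
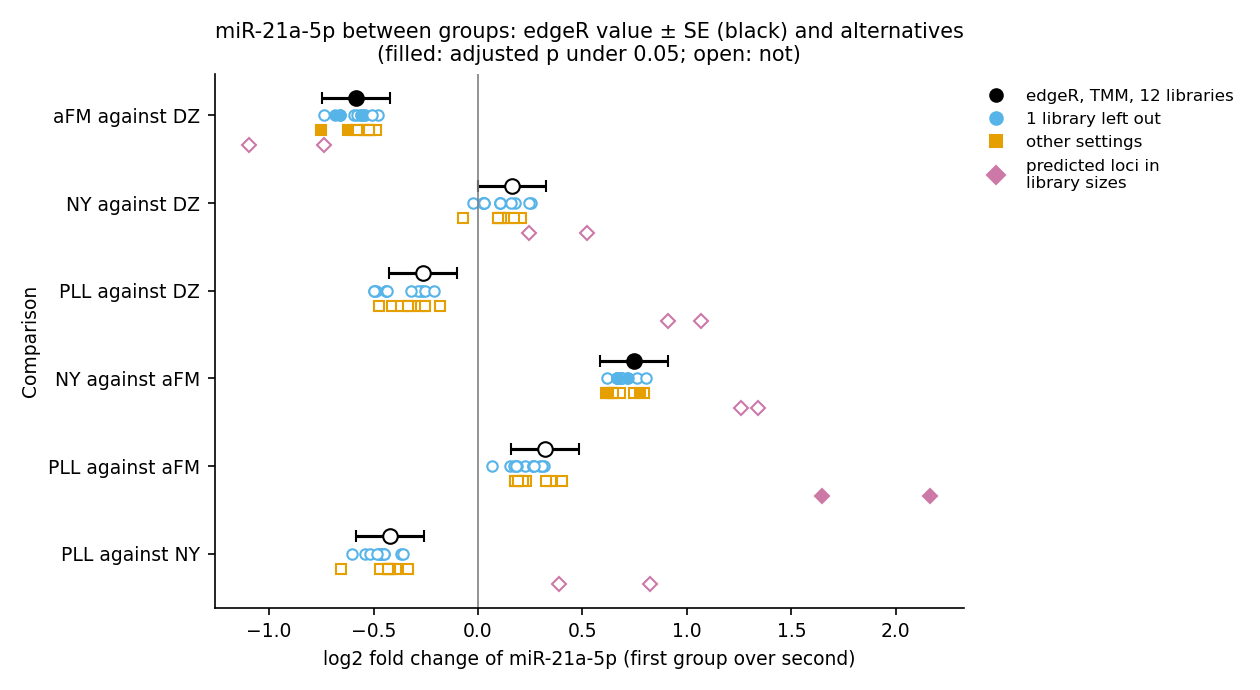
The log2 fold change of miR-21a-5p (first group over second) is given for 6 comparisons, as the edgeR value ± SE in black and as the values with 1 library left out, with other settings, and with predicted loci counted in library sizes; filled symbols have an adjusted p under 0.05. The aFM against DZ values are all negative and the NY against aFM values all positive, while PLL against DZ and PLL against NY change sign when predicted loci enter the library sizes.

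The position of PLL depended on what miR-21a-5p was measured against. As a share of all counts, predicted loci included, miR-21a-5p took 1.16% ± 0.403 in aFM, 2.79% ± 0.795 in NY, 3.65% ± 0.845 in PLL and 1.95% ± 0.998 in DZ (SD, n = 3). An exact permutation test over the 4 groups gave p = 0.0286. On this scale PLL had the highest mean, and the annotated share of counts given above was highest in PLL too. In a fit over all rows the log2 fold change of PLL against aFM was 2.16 (adjusted p = 0.0129), that of PLL against DZ 1.07 (adjusted p = 0.157) and that of PLL against NY 0.82 (adjusted p = 0.306). The median annotated miRNA stood at 2.13, 1.73 and 1.49 in the same comparisons. miR-21a-5p thus lay close to the median miRNA in PLL against aFM and below it in the others.

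Ratios within a library need no scaling and show the same dependence. They were taken to the other 8 distinct miRNAs of the 10 most abundant, a choice made after seeing the data. Against miR-143-3p, a mesenchymal and smooth muscle miRNA second to miR-21a-5p in mean share, the log2 ratio was -0.049 in aFM, 0.54 in NY, 1.28 in PLL and 0.38 in DZ. Its libraries ran from -0.31 to 0.23 in aFM, 0.30 to 0.68 in NY, 0.95 to 1.50 in PLL and -0.0061 to 0.61 in DZ. PLL was thus above every other group, with an exact permutation p over the 4 groups of 0.00221 (adjusted p = 0.00883 over 8 ratios). miR-143-3p itself was lower in PLL, at 37501 ± 7799 CPM, than in the other groups.

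Against let-7b-5p and let-7c-5p PLL was highest as well, with log2 ratios of 0.81 and 0.50 in aFM, 1.20 and 0.84 in NY, 1.83 and 1.23 in PLL and 1.39 and 0.74 in DZ (exact permutation over the 4 groups, adjusted p = 0.0168 each). In the TMM-scaled edgeR fit let-7b-5p itself was called lower in PLL than in DZ, aFM and NY (log2 fold changes -0.70, -0.71 and -1.05). let-7c-5p was called lower than in DZ and NY (-0.74 and -0.81) but not than in aFM (-0.41, edgeR adjusted p = 0.0824). miR-21a-5p was not called in any PLL comparison of that fit. The ratio to miR-9-5p was instead lowest in PLL, with means of 1.09 in aFM, 3.98 in NY, -0.27 in PLL and 9.02 in DZ. It had the smallest p of the 8 (adjusted p = 0.000519, same permutation test). Against miR-26a-5p the means were 0.50 in aFM, 1.45 in NY, 0.62 in PLL and 1.41 in DZ, with the PLL libraries all below those of NY and DZ (adjusted p = 0.0682, same test). PLL against DZ and PLL against NY each had 4 of the 8 ratios higher and 4 lower. Against miR-148a-3p the means were -0.33 in aFM, 1.14 in NY, 0.36 in PLL and 1.07 in DZ, and the difference did not pass (adjusted p = 0.0876, same test). The PLL libraries ran from -1.08, in replicate A, to 1.25, so that mean leans on replicate A. There miR-148a-3p had 176869 CPM, against 45777 and 41891 in PLL replicates B and C. Over the 8 ratios, 7 were lower in aFM than in DZ, with a median difference of -0.60. Likewise 7 were higher in NY than in aFM, with a median of 0.67. The exception in both was the ratio to miR-486b-5p, with means of 0.95 in aFM, 0.89 in NY and 0.54 in DZ.

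After TMM scaling, miR-21a-5p varied little between libraries of a group. Its standard deviation within groups was 0.17 on the log2 CPM scale, rank 6 from the smallest of 132 miRNAs tested, whose median was 0.68. Among the 20 most abundant miRNAs it ranked 4, with a median of 0.44. Across all 12 libraries its standard deviation was 0.33, rank 11 of 132, against a median of 0.74. Its levels spanned 0.98 on the log2 scale between the lowest library, aFM replicate A, and the highest, NY replicate B.

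The miRNAs whose levels were most like those of miR-21a-5p were taken by Pearson's r of log2 CPM over the 12 libraries, given as a description. All libraries of a group share its conditions, and the miRNAs share each library's depth and scaling factor. The 5 highest were miR-22-3p (r = 0.76), a broadly expressed miRNA, miR-142a-5p (0.72), a miRNA of blood cells, miR-328-3p (0.72), miR-34c-5p (0.71), of the p53-responsive miR-34 family, and miR-1981-5p (0.70). Over the 131 other miRNAs tested the median r was -0.0055. With library totals in place of TMM scaling, only 2 of these 5 stayed among the 5 highest, so the list depends on the scaling. miR-22-3p averaged 4830 ± 603 CPM in aFM, 8400 ± 645 in NY, 6626 ± 392 in PLL and 7052 ± 875 in DZ, the order of groups seen for miR-21a-5p. miR-1981-5p had 82 counts in all and miR-34c-5p 196.

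At the other end were miR-126a-3p, an endothelial miRNA (r = -0.82), and miR-151-3p (-0.79), at 6184 CPM in aFM, 3519 in NY, 3913 in PLL and 3508 in DZ. miR-126a-3p averaged 4886 ± 273 CPM in aFM, 584 ± 263 in NY, 1997 ± 305 in PLL and 804 ± 572 in DZ (SD, n = 3). Once each group's mean was taken away, r was -0.27 for miR-22-3p, -0.0053 for miR-328-3p and 0.037 for miR-126a-3p, so for these the likeness lay between groups and not among libraries of a group. It stood at 0.23 for miR-142a-5p, 0.45 for miR-34c-5p and 0.63 for miR-1981-5p, and none of the 5 most alike miRNAs was among the 5 most alike by this measure.

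**Figure D5:**
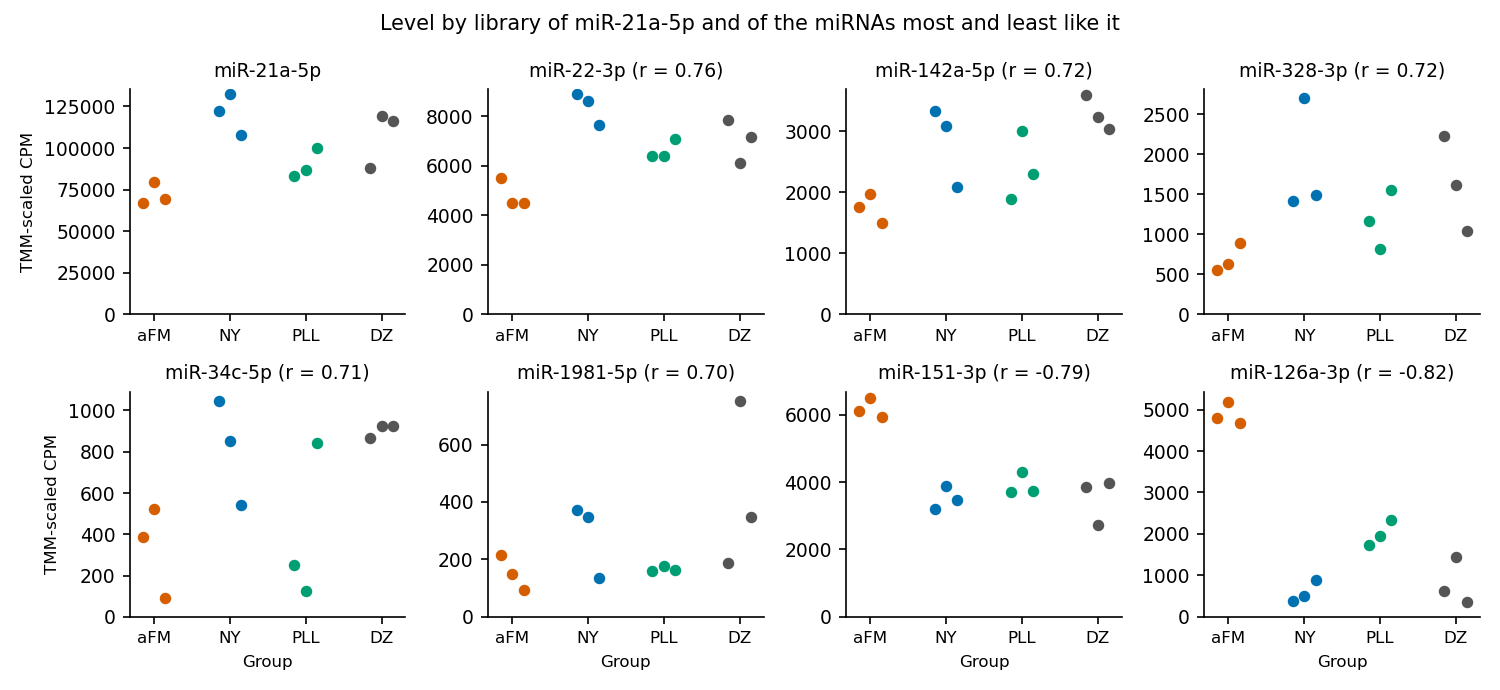
TMM-scaled CPM by library is shown for miR-21a-5p, the 5 miRNAs with the highest Pearson's r to it over 12 libraries and the 2 with the lowest, by group. The aFM libraries are the lowest of miR-21a-5p and miR-22-3p and the highest of miR-126a-3p and miR-151-3p.

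Of 10 miRNAs linked to STAT3, AP-1 or NF-κB, 5 were tested, and the other 5, miR-155-5p among them, had at most 58 counts in all and did not pass the filter. In aFM against DZ, 2 were higher, miR-9-5p and miR-222-3p (1.20 ± 0.37), which promotes proliferation, and 1 was lower, miR-146a-5p (-2.00 ± 0.50), which dampens NF-κB activation. Among all 132 miRNAs tested, 9.09% were higher and 9.85% lower in that comparison. The list's median log2 fold change was -0.37, against -0.14 for all. The call of miR-222-3p held in 3 of 12 fits that left out 1 library, and that of miR-146a-5p in 8. In PLL against aFM, 3 were higher and 0 lower, where 6.06% of all miRNAs tested were higher and 3.03% lower, and the median was 1.57 against 0.31 for all. They were miR-9-5p, miR-146b-5p (2.10 ± 0.50), which has the seed of miR-146a-5p, and miR-221-3p (1.14 ± 0.25), the partner of miR-222-3p, and miR-21a-5p was not called there. Without 1 library the number called ran from 0 to 3, with miR-221-3p called in 7 of 12 fits and miR-9-5p and miR-146b-5p in 8 each. PLL against NY had 2 higher, miR-9-5p and miR-146b-5p, and leaving out 1 library kept the call of miR-146b-5p in 4 of 12 fits (adjusted p up to 0.204). Among all miRNAs tested 3.03% were higher there, and the list's median was 0.79 against 0.17 for all. NY and PLL against DZ had 1 higher each, which was the only miRNA called higher in either comparison (0.758% of those tested). NY against aFM had 1 lower, where 3.03% of all were lower. The list's medians in these were 0.26, 0.90 and 0.26, against 0.022, 0.22 and 0.18 for all. In each case the member called was miR-9-5p, which was called in all 6 comparisons. In NY against aFM the call of miR-9-5p was lost in 3 of 12 fits that left out 1 library (edgeR adjusted p up to 0.102). It averaged 33896 ± 3044 CPM in aFM, 7623 ± 626 in NY, 109434 ± 20094 in PLL and 330.8 ± 257 in DZ (SD, n = 3). The 3 neural markers listed, of which it is 1, summed to 3.72% to 4.05%, 0.891% to 1.18%, 6.43% to 13.9% and 0.233% to 0.290% of annotated counts in those groups. Of the others, miR-124-3p was at 0 in DZ and miR-128-3p was called in none of the 6 comparisons. The log2 fold change of miR-128-3p was 0.65 ± 0.26 in aFM against DZ, 0.10 ± 0.26 in PLL against DZ and -0.55 ± 0.25 in PLL against aFM. That of miR-9-5p was 6.76, 8.45 and 1.69 in the same comparisons.

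Of 13 miRNAs linked to TGF-β signalling and fibrosis, 8 were tested, and the other 5 had at most 61 counts each in all. In aFM against DZ, miR-145a-5p, which promotes smooth muscle differentiation, was lower (-4.03 ± 1.19, lost in 10 of 12 fits without a library). It had 71 counts in all, and 85.7, 0 and 0 CPM in aFM replicates A, B and C. There 3 counts are 101 to 131 CPM before TMM scaling, so the size of this change is poorly determined. Its other arm, miR-145a-3p, was not called (-0.86 ± 0.35, edgeR adjusted p = 0.115). Among all miRNAs tested, 9.85% were lower in aFM against DZ. miR-143-3p was lower in PLL against DZ (-1.13 ± 0.17), PLL against aFM (-0.99 ± 0.17) and PLL against NY (-1.14 ± 0.17), which held in all 12 fits without a library. Among all miRNAs tested, 3.03%, 3.03% and 3.79% were lower in those 3 comparisons. The list's median log2 fold change was -0.33, 0.29 and 0.59 there, against 0.22, 0.31 and 0.17 for all. In aFM against DZ it was -0.29, against -0.14 for all. With predicted loci in the library sizes the 3 values of miR-143-3p were 0.24, 0.80 and 0.050 and none was called. NY against DZ and NY against aFM had 0 calls in this list by edgeR, with 3 and 1 members at an unadjusted p under 0.05, and DESeq2 called 1 and 0. The member with the smallest p in both was miR-192-5p, a miRNA of kidney, gut and liver, at 2581 ± 507 CPM in aFM, 1094 ± 252 in NY, 1474 ± 601 in PLL and 3939 ± 3608 in DZ (SD, n = 3). DZ replicates A, B and C had 2230, 1503 and 8084 CPM, so the DZ mean leans on replicate C. NY against DZ gave miR-192-5p a log2 fold change of -1.86 ± 0.56 (adjusted p = 0.246), and NY against aFM one of -1.23 ± 0.55 (adjusted p = 0.168). miR-199a-5p and miR-199a-3p, processed with SMAD help in human cells as miR-21 is, were not called either.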

How the data were processed

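The authors deposited raw counts, whole numbers that were not normalized, judged from the values, with a column for each library. Per the submitters' processing notes, FastQC, STAR, StringTie and DESeq2 were used with the build mm39. How reads were assigned to miRNAs is not given in the sources used here. The 1531 predicted loci, 39.3% to 89.7% of a library's counts, carry no gene name and entered neither the library sizes nor the tests. Tests used edgeR 4.0.16 (limma 3.58.1, R 4.3.3). filterByExpr defaults (minimum count 10, total 15) kept 132 miRNAs. After TMM scaling, 1 quasi-likelihood model with a coefficient for each group was fitted to the 12 libraries. The two-sided tests were adjusted by Benjamini-Hochberg over all miRNAs tested (threshold 0.05). An SE is the log2 fold change over the square root of F. Log2 CPM has 0.5 added. Exact permutation tests, two-sided for pairs and on the between-group sum of squares for the 4 groups, covered shares and ratios (scipy 1.17.1). DESeq2 1.42.0 was an alternative.

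The arms and lists were chosen with earlier results of these data known. Named were the arms, the rows with a shared seed, the 5 most and 2 least similar miRNAs, the miRNA next in mean share, the hairpins nearest in arm share (above miR-21a only, as those below it are tied at 0), and list members past the threshold or, with none, of smallest p. Other alternatives changed the scaling, the filter, the rows or the libraries in the fit. The fit was also run on simulated counts, with changes larger than those called for miR-21a-5p and the same spread for all miRNAs. That run does not bear on the calls of miR-21a-5p. Within groups, every pair of libraries differed by more than sampling noise (chi-square test). The chi-square per degree of freedom was 71.6 and 64.6 for PLL replicate A against B and C, and 5.73 for PLL replicate B against C. In the other groups it was at most 27.1, for DZ replicate A against C. Replicate letters are shared by the groups: deviations of same-letter libraries from the group means correlated at 0.15, 0.20 and 0.15 between NY and DZ, above the 0.1 set for pairing, with no support from the labels, and did not exceed 0.1 for every letter in any other comparison.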

Additional observations from a re-analysis of the deposited data

How the results depend on the processing

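For miR-21a-5p in aFM against DZ, the log2 fold change kept its sign in all alternatives and its call in 2 of 12 that left out no library, upper quartile factors and merged identical rows. It was no longer past the threshold at -0.52 with RLE factors or DESeq2, -0.49 with library totals, -0.54 with no filter, -0.59 with a filter at 100 CPM, -0.55 without miR-9-5p, -0.52 with only the 2 groups compared, -1.10 in the fit over all rows and -0.74 with library totals of all rows (added after seeing the data). In NY against aFM it was positive throughout and lost the call at 0.62 with RLE factors or DESeq2, 0.68 with upper quartile factors, 0.64 with library totals or no filter, 0.79 with the 100 CPM filter, 0.65 without miR-9-5p, 1.34 over all rows and 1.26 with library totals of all rows. The joint test's adjusted p rose to 0.0894 with RLE factors, 0.101 with upper quartile factors, 0.199 with library totals, 0.344 with no filter, 0.0710 with the 100 CPM filter and 0.0906 with DESeq2.

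With the replicate block, aFM against DZ stood at -0.58 with an adjusted p of 0.0597, NY against aFM stood at 0.75 with an adjusted p of 0.0684, and the joint test gave 0.0661, so all 3 calls were lost; in NY against DZ, where the letters met the pairing criterion, the value was 0.17 and the call did not change. The block changed no other call of miR-21a-5p.

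NY against DZ turned to -0.074 with upper quartile factors. PLL against DZ turned to 1.07 over all rows and 0.91 with library totals of all rows, and PLL against NY to 0.82 and 0.39, none of them past the threshold. PLL against aFM passed it at 2.16 and 1.65 under the same settings. The share of miR-21a-5p turned to 1.70 and 0.858 percentage points higher in PLL than in DZ and NY when taken of all counts, where the 4-group exact permutation p was 0.0286. The 3p arm share in PLL against DZ turned to -0.17 as a log2 ratio with 0.5 added, which rests on the 5p counts. miR-143-3p turned to 0.24 in PLL against DZ, 0.80 in PLL against aFM and 0.050 in PLL against NY over all rows, and to 0.095 and 0.32 in the first 2 with library totals of all rows. Pearson's r turned for miR-22-3p (-0.27), miR-328-3p (-0.0053) and miR-126a-3p (0.037) after removing group means. The cause of these changes was not tested.

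Leaving out 1 library at a time, the log2 fold change of miR-21a-5p ran from -0.74 to -0.48 in aFM against DZ, -0.023 to 0.25 in NY against DZ, -0.50 to -0.21 in PLL against DZ, 0.62 to 0.80 in NY against aFM, 0.065 to 0.31 in PLL against aFM and -0.60 to -0.36 in PLL against NY, and the joint adjusted p from 0.0206 to 0.151. NY against DZ was negative without DZ replicate A only. The joint call held without DZ replicate A or PLL replicate A (adjusted p = 0.0268 and 0.0206) and was lost without any other library. The 4-group p of the share ran from 0.0293 to 0.175, NY minus DZ in share from -0.209 to 2.00, and the 3p share in PLL minus aFM from -0.0156 to 0.00981 percentage points.

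The fits planned for miR-21a-3p were not run, since it failed the filter; with no filter its adjusted p was at least 0.721. The 3p arm is limited by depth: with 1422 to 4194 counts of both arms, the share that a count of 0 allows in a library ran from 0.0715% to 0.211%.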
